A study of Homo sapiens with 8 samples.

Results

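The U1 snRNA gene cluster described here is a 460 kb stretch of the short arm of human chromosome 1, from 16800000 to 17260000 (hg19). It carries RNU1-1, RNU1-2, RNU1-3 and RNU1-4 with neighbouring tRNA genes, among other genes. Its members were chosen by peak calls: all peaks of 8 deposited ATAC-seq peak lists that fall in this stretch. They were 87 peaks of 119972 in all, and after merging peaks that shared at least 1 bp they formed 21 regions of 36845. The stretch was proposed with values of these same data in view, so its levels are given as a description with counting intervals and without a test.

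U1 snRNA is the RNA core of the U1 small nuclear ribonucleoprotein, which pairs with the 5′ splice site at the first step of intron recognition. Human U1 genes are short, lack introns and are transcribed by RNA polymerase II from compact promoters with a proximal element bound by the SNAPc complex and an upstream element bound by POU2F1, while the tRNA genes among them are read by RNA polymerase III. The U1 copies are nearly identical in sequence, so short reads may fit more than 1 of them.

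The cells were 293T, a line of human embryonic kidney origin with the large T antigen of SV40, and beyond the fractionation nothing in the labels sets the samples apart by genotype or treatment. The lists carry no gene names, so the line was not checked against marker genes. Crosslinked and permeabilised cells were tagmented, which inserts sequencing adapters into accessible DNA, and the mixture was put on Q Sepharose, an anion exchange resin that holds negatively charged material until salt displaces it. The 8 libraries are the flow-through (FT) and the successive washes with 20, 100, 200, 300, 500, 700 and 1000 mM NaCl (G20 to G1000). Each fraction had 1 library, so there is no replicate check on any difference, and what is compared is libraries, not conditions. The names inside the G200 list read G50_200, so it is called G200 throughout without taking it for the 200 mM wash alone.

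Depth and list length differed between the libraries. The lists held between 8102 peaks (G700) and 22807 peaks (FT), and the reads over summits of 4116 ordinary regions called in every list summed to between 59006 (G700) and 126224 (FT). G200 had the lowest genome background, 0.239 reads, against 0.248 to 0.662 reads in the other libraries. Reads here are the pileup at a peak's summit, recovered as a whole number from the authors' deposited fold enrichment and −log10 p. Scaled reads are these numbers after each library was brought to the same total over the ordinary regions.

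Of the 21 regions, 6 (28.6%) were called in all 8 lists, against 11.5% of the regions of the whole series, and 5 (23.8%) were called in a single list, against 40.7%. The 6 are named A to F in their order along the chromosome. Region A spans 16839465 to 16841030, region B 16871965 to 16872723, region C 16992048 to 16993850, region D 17066611 to 17068330, region E 17222444 to 17223755 and region F 17231126 to 17232311. A, C, D and E are called the wide regions, picked because each measured at least 800 bp in every list. The lowest width among them was 856 bp. Region F, at 481 to 1083 bp, did not reach the limit in every list. No hg19 annotation was used, so the genes were not placed on these regions by coordinate. The RefSeq table of GRCh38.p14 gives the order of the 4 U1 genes along the chromosome as RNU1-1, RNU1-3, RNU1-4 and RNU1-2, with 2 shorter U1 pseudogenes, RNU1-6P and RNU1-5P, and 8 tRNA genes between the outer ones. From RNU1-1 to CROCC the same table also lists 4 protein-coding genes, NBPF1 and CROCC among them, 5 lncRNA genes and 1 miRNA gene. It further lists 12 pseudogenes, the U1 ones included, and 4 transcribed pseudogenes. A region of the cluster therefore need not belong to a U1 or tRNA gene. Which of the wide regions holds which gene, and whether each holds a U1 gene, was not tested.

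**Figure D1:**
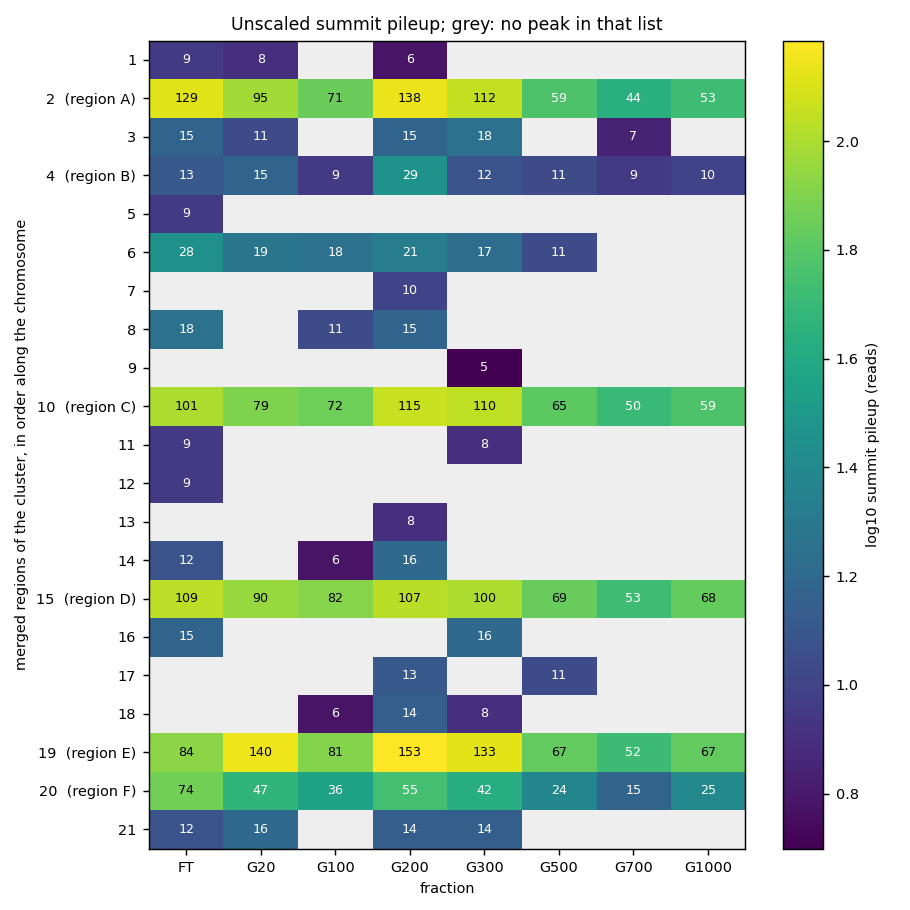
Summit pileup (unscaled reads, log10 colour scale, number in each cell) of the 21 merged regions, in order down the page, in the 8 fractions; grey marks no peak in that list. Regions A, C, D and E carry 44 to 153 reads in every fraction, and the regions called in fewer lists carry 5 to 28.

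The wide regions were among the first peaks of every list by −log10 q. Ranked by the authors' −log10 q within its own list, region E stood at place 82 for FT, 22 for G20, 36 for G100, 12 for G200, 30 for G300, 45 for G500, 54 for G700 and 44 for G1000. Region A ranked between 16 (G200) and 112 (G1000), region C between 31 (G200) and 234 (G20), and region D between 46 (G200) and 131 (G20). All 4 therefore lay within the first 1.20% of their list. Ranked by fold enrichment instead, they stood lower in most lists: region A at places 77 to 1646, region C at 719 to 3523, region D at 424 to 2488 and region E at 11 to 538. G100 and G200 were the exceptions for region E, at place 32 and place 11.

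Regions A, C and D were broad, but the 4 wide regions were picked by width, so their breadth is a description. Region A measured 1431 to 1536 bp over the 8 lists, region C 1287 to 1801 bp, region D 1255 to 1709 bp and region E 856 to 1306 bp. Among peaks of the same list with a pileup within 1.5-fold, between 0% and 8.96% were wider than region A, 0.692% to 11.0% were wider than region C and 1.46% to 12.4% were wider than region D. Region E was less unusual in this respect, with 12.7% to 48.0% of such peaks wider, and it was the narrowest of the 4 in all 8 lists. Its fold enrichment was the highest of the 4 in 7 lists, between 10.7 and 16.8 there. In FT region A was higher, with a fold of 11.2 against 10.1 in region E. For region A the sets of similar pileup held 24 to 185 peaks, and for region C 41 to 289. They held 49 to 205 for region D and 20 to 213 for region E, so some percentages rest on few peaks.

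Summits of regions A and E fell closer together over the 8 lists than those of the other regions called in all of them. In region A they fell between 16840585 and 16840615, a span of 30 bp, and in region E between 17222761 and 17222843, a span of 82 bp. Region C had summits over 188 bp and region D over 218 bp. The summit stood off centre in each of the 4, and not on the same side. It lay at 68.9% to 74.9% of the peak's width from its lower coordinate in region A and at 74.7% to 89.4% in region C, but at 9.90% to 27.8% in region D and 25.6% to 41.0% in region E. Seen along the chromosome, the pair nearer the start of the cluster had its summits towards higher coordinates and the pair farther along had them towards lower coordinates. Of the smaller regions, B had summits over 320 bp and F over 184 bp.

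**Figure D2:**
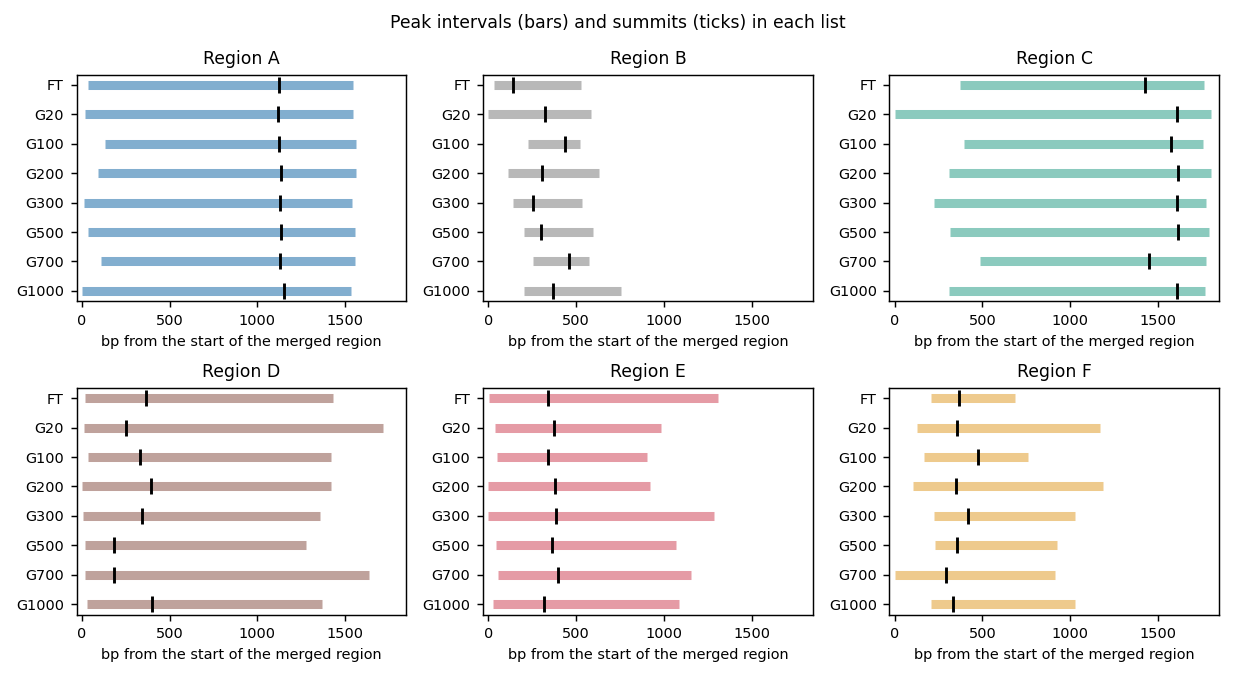
Peak intervals (bars) and summits (ticks) of regions A to F in each of the 8 lists, in bp from the start of the merged region. Summits of A and C sit right of centre and those of D and E left of centre in every list.

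Across the fractions the cluster as a whole had its most reads, relative to other open regions, in G200, and in this scaling was nearly level elsewhere. Summed over regions A to F, scaled reads were 373 for FT, 364 for G20, 396 for G100, 599 for G200, 388 for G300, 392 for G500, 349 for G700 and 368 for G1000. The value of G200 was above all others, and the other 7 lay close together. G200 had 1.59 times the reads expected from the other 7 libraries (95% Clopper-Pearson interval 1.45 to 1.74, counting error only, as for all intervals here). Such intervals take reads as independent and may be too narrow. The other libraries had between 0.853 (G700) and 0.978 (G100) times. With G200 left out of the comparison they had between 0.920 (G700) and 1.06 (G100) times, and each of these 7 intervals included 1. Next to G200 in this order stood G100, and G200 over G100 was 1.51 (1.32 to 1.73). No other neighbours in the order differed beyond their counting interval. The level depends on the scaling. With expected reads taken from the genome background, the sum had 0.649 times (0.589 to 0.713) in FT and 2.57 times (2.35 to 2.81) in G200. The remaining libraries then had between 0.810 (G700) and 1.02 (G20) times. G200 is also the library with the lowest genome background and with differently named peaks. In its list 13.6% of the fold values had fewer than 5 decimals, against 0.0% in every other list. The part of these features in the result was not tested.

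The direction in G200 was shared by regions A to F. Its size ran from 1.32 times (1.06 to 1.62) in region D to 2.58 times (1.62 to 3.99) in region B. The intervals of A, C, D, E and F overlapped. G200 was above 1.5-fold in 4 of the 6 regions (A, B, C and E), where 5.31% of the 4238 regions shared by all lists and 6.25% of the 192 shared regions of similar pileup to the wide ones were. Both shares include regions of the cluster. G200 also spread widely downwards: 14.3% of all shared regions were below the reciprocal of 1.5, against 4.13% (G300) to 6.61% (G700) in the other libraries. Among the regions of similar pileup 24.5% were below it in G200, against 11.5% in FT. With expected reads taken from all shared regions, region C had 1.498 times and 3 regions were above. Since the cluster was put forward with such values known, this count is a description. Reads that fit several U1 copies may also link these regions, so they cannot be taken as independent members. In all, 4 of the 48 pairs of a region and a library were above 1.5-fold, where 3.47% of all such pairs were, and 4 were below the reciprocal, where 6.40% were. With expected reads taken from the genome background, 6 of the 48 pairs were above and 6 below, where 9.18% and 9.0% of all such pairs were.

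**Figure D3:**
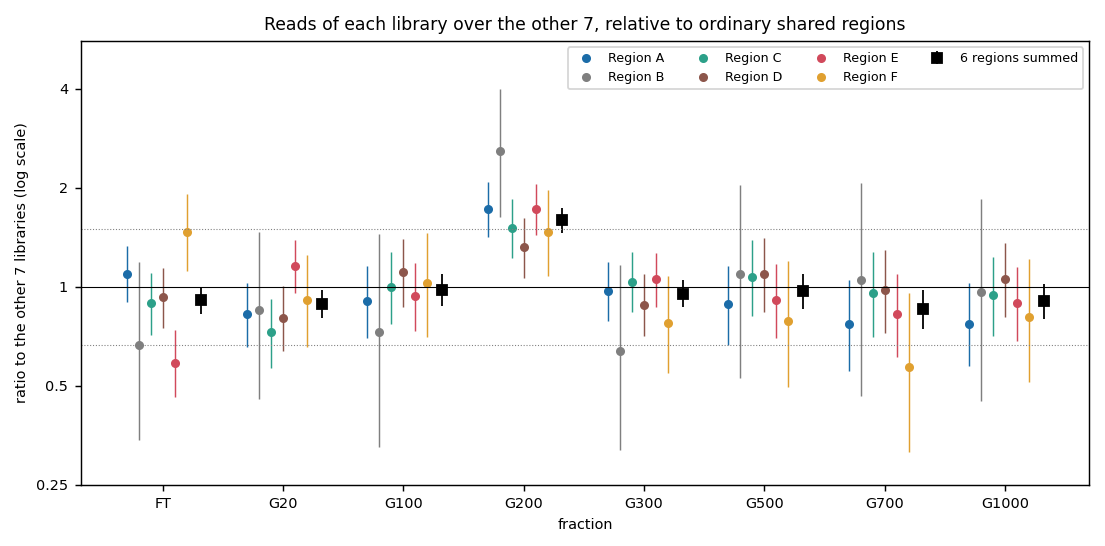
Ratio of each library's summit reads to the other 7 libraries, relative to ordinary shared regions (log axis), for regions A to F (circles) and their sum (squares), with 95% Clopper-Pearson intervals; dotted lines mark 1.5-fold either way. The sum is at 1.59 in G200 and between 0.853 and 0.978 elsewhere.

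Region A had 129 reads at its summit for FT, 95 for G20, 71 for G100, 138 for G200, 112 for G300, 59 for G500, 44 for G700 and 53 for G1000. Once scaled, only G200 stood apart from its neighbour in the order, with 138 scaled reads against 94.3 in FT. The ratio of G200 to the other 7 libraries was 1.72 (1.42 to 2.08). From FT down to G700, at 68.8 scaled reads, no neighbours differed beyond their interval.

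Region C had 101 reads for FT, 79 for G20, 72 for G100, 115 for G200, 110 for G300, 65 for G500, 50 for G700 and 59 for G1000. The order of its scaled reads was led by G200, at 115, and ended with G20, at 61.7, and neighbours in it did not differ beyond their intervals. Over the other 7 libraries the ratio was 1.51 (1.22 to 1.85) in G200 and 0.725 (0.566 to 0.919) in G20. Without FT among the others, G200 had 1.495 times (1.21 to 1.84), under the fold of 1.5.

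Region D varied least among the 6. It had 109 reads for FT, 90 for G20, 82 for G100, 107 for G200, 100 for G300, 69 for G500, 53 for G700 and 68 for G1000. Scaled, these ran from 70.3 in G20 to 107 in G200, and the ratio of G200 to the other 7 was 1.32 (1.06 to 1.62). Neighbours in this order did not differ beyond their intervals.

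Region E was the one of the 6 in which FT had the lowest scaled reads of all libraries. It had 84 reads for FT, 140 for G20, 81 for G100, 153 for G200, 133 for G300, 67 for G500, 52 for G700 and 67 for G1000. FT was thus lower than G20 and G300, libraries of slightly lower depth, and scaled it stood at 61.4, with the others between 81.3 (G700) and 153 (G200). The ratio to the other 7 libraries was 0.588 (0.463 to 0.738) in FT and 1.72 (1.43 to 2.06) in G200. Without G200 among the others, FT had 0.641 times (0.503 to 0.808). Of the neighbours in the order, G200 and G20 alone differed beyond their interval. A ratio below the reciprocal of 1.5 was found in FT for 4.86% of all shared regions and for 11.5% of those of similar pileup. The FT peak was also the widest of region E, 1306 bp against 856 to 1284 bp in the washes.

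**Figure D4:**
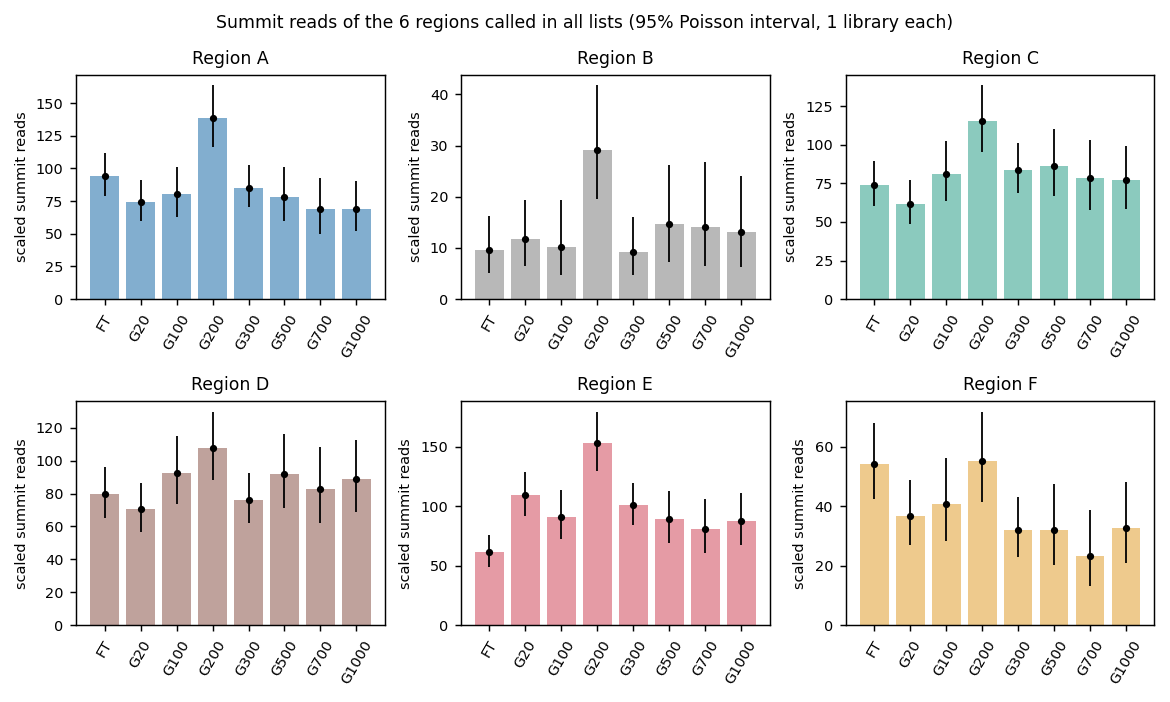
Scaled summit reads of regions A to F (1 panel each, linear axis from 0) in the 8 fractions, with 95% Poisson intervals; each bar is 1 library. G200 is the highest bar of each panel, in F nearly level with FT, and FT is the lowest bar of region E.

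Reads that fit several U1 copies could be placed on any of them. The authors' handling of such reads is not given in the sources used here. Whether regions A, C, D and E hold U1 copies was not tested. If they do, summing them evens out only reads exchanged among these regions. Reads placed on U1 copies elsewhere, or dropped, could change the sum as well as the balance between the regions. The size of either effect was not tested. Summed over A, C, D and E, scaled reads were 309 for FT, 316 for G20, 345 for G100, 515 for G200, 347 for G300, 346 for G500, 311 for G700 and 322 for G1000. The ratio of the sum to the other 7 was 1.57 (1.43 to 1.73) in G200 and 0.860 (0.774 to 0.955) in FT. Without G200 among the others, FT had 0.932 times (0.836 to 1.04), an interval that includes 1.

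The balance between the 4 wide regions differed mainly in FT and in G20, which departed in opposite directions for region E. Region E held 19.9% of their reads in FT (95% Clopper-Pearson interval 16.2 to 24.0) and 34.7% in G20 (30.0 to 39.5), while it held between 25.8% (G500) and 29.8% (G200) in the other washes. In FT the largest share was that of region A, 30.5% (26.1 to 35.1), against 24.0% (22.3 to 25.8) in the washes together. Regions C and D held between 19.6% and 27.5% in every library. The shares of the 500, 700 and 1000 mM washes were close to even, from 21.5% to 27.5%. In the wider window of the local background, region E held 18.6% in FT, 24.2% in G20 and 19.8% to 22.8% in the other washes, so the gap between FT and the washes was narrower there than at the summit.

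Region F lies 8.68 kb beyond region E, start to start, and had the opposite pattern in FT. It had 74 reads for FT, 47 for G20, 36 for G100, 55 for G200, 42 for G300, 24 for G500, 15 for G700 and 25 for G1000. FT and G200 were nearly level once scaled, at 54.1 and 55.2, and the other washes had 23.5 (G700) to 40.6 (G100). The ratio to the other 7 was 1.47 (1.12 to 1.91) in FT, 1.47 (1.08 to 1.97) in G200 and 0.570 (0.315 to 0.955) in G700. Without G200 among the others it was 1.61 (1.22 to 2.12) in FT and 0.602 (0.332 to 1.01) in G700. With all 8 libraries in the order, no neighbours differed beyond their intervals. Scaled to the genome background, FT had 1.05 times (0.799 to 1.37) over the other 7. The FT peak was the narrowest of region F, 481 bp against 592 to 1083 bp in the washes. Set directly against its neighbour, region F had 0.881 times the reads of region E in FT (0.636 to 1.22), against 0.352 times in the 7 washes together (0.303 to 0.408). In the single washes this ratio ran from 0.288 (G700) to 0.444 (G100). A ratio of 2 regions within 1 library does not depend on how libraries are scaled.

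**Figure D5:**
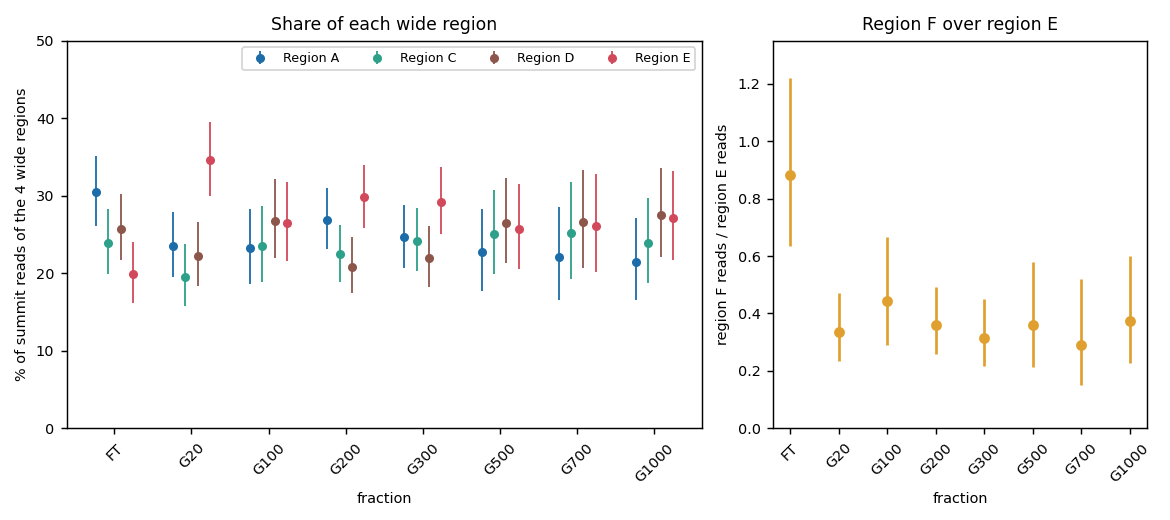
Left: percentage of the summit reads of regions A, C, D and E held by each, per fraction. Right: reads of region F over those of region E. Both have 95% Clopper-Pearson intervals; region E holds 19.9% in FT, and F over E is 0.881 in FT and 0.288 to 0.444 in the washes.

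Region B was the weakest of the regions called in every list. It had 13 reads for FT, 15 for G20, 9 for G100, 29 for G200, 12 for G300, 11 for G500, 9 for G700 and 10 for G1000. G200 was well above the rest, which lay between 9.14 (G300) and 14.6 (G500) scaled reads, against 29.1 in G200. Its ratio of 2.58 to the other 7 libraries (1.62 to 3.99) was the largest of the 48, and rested on the fewest reads. G200 over the next library, G500, had an interval of 0.964 to 4.41, so that pair could not be told apart at this depth. The low values of FT (0.664) and G300 (0.637) in this region had intervals that included 1.

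The remaining 15 regions were called in 1 to 6 lists and were weak, with 39 peaks of 5 to 28 reads. Of these 15 regions, 10 were called in FT, 4 for G20, 4 for G100, 10 for G200, 7 for G300, 2 for G500, 1 for G700 and 0 for G1000. FT has the longest list and G200 only the fourth longest, and the share of a list's peaks that lay in the cluster was 0.100% in G200 against 0.0565% to 0.0864% in the others. When lists were cut to equal length by −log10 q, at the length of the shortest, the cluster kept 6 peaks in FT, 8 for G20, 7 for G100, 13 for G200, 9 for G300, 8 for G500, 7 for G700 and 6 for G1000. The number of FT was then at the level of the high-salt washes.

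The region nearest to being called in every list, from 16939537 to 16940427, had 28 reads for FT, 19 for G20, 18 for G100, 21 for G200, 17 for G300 and 11 for G500, and no peak in G700 or G1000. A region from 16861331 to 16861919 was called in 5 lists, with 15 reads for FT, 11 for G20, 15 for G200, 18 for G300 and 7 in G700. Peaks missing from the shallower lists may lie below their detection limit, so their absence is not shown to be a difference. Between 17075114 and 17188525, a stretch of 113 kb, no list held a peak. How much of this stretch reads can be placed on was not checked, so it is not shown to be closed. Just outside the cluster, the nearest regions were 32.8 kb before it, called in 4 lists with at most 16 reads, and 5.56 kb after it, called in 1 list with 8 reads.

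The pattern of the cluster over the 8 libraries was compared with 3673 other shared regions of at least 108 reads. The 5 most alike by Pearson's r over the 8 log2 ratios were chromosome 19 from 55919114 to 55919869 (r = 0.94), chromosome 22 from 39101304 to 39102136 (r = 0.94), chromosome 1 from 12538110 to 12538851 (r = 0.92), chromosome 10 from 104613808 to 104614597 (r = 0.92) and chromosome 19 from 54693261 to 54695072 (r = 0.91). In each of them G200 was the highest library, with 1.48 to 1.86 times the reads expected from the other 7. The 8 points of such a correlation share the libraries and their scaling, and the 5 were picked for their likeness, so the values are a description.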

How the data were processed

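ATAC-seq of 8 fractions of 293T cells was analysed from 1 deposited peak list per library. Per the submitters' processing notes, the tools were Bowtie2 2.2.6, MACS2 2.2.1 and HOMER and the builds hg19 and mm10. The coordinates used here are those of the lists, taken as hg19 and counted from 1. Not given in the sources used here are read filters, the placing of multiply mapped reads, any transposase shift and the peak calling settings. Peaks were called per library by the authors. Each deposited list holds a whole-number score (not used further), a fold enrichment (a ratio of the pileup to the local background), a −log10 p and a −log10 q. These are the authors' values and were used within a list only.

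Summit pileups were recovered by solving fold = (pileup + 1) / (background + 1) together with the Poisson p-value of the pileup, with a tolerance of 0.001 in −log10 p. A match was found for at least 99.98% of each list, and a single match for at least 98.9%, the lowest share being that of G20. The lowest background of a list was taken as its genome background. For each library, the reads of a region (its highest pileup) over those of the other 7 were divided by the same ratio in 4116 ordinary shared regions: those on placed chromosomes, more than 20 kb from a chromosome's first base or last peak and more than 1 Mb from its longest peak-free stretch. Intervals are 95% Clopper-Pearson or Poisson intervals, which take reads as independent and cover counting error at most. Pileups may be fragments and are not independent molecules, so the intervals may be too narrow. With 1 library per fraction no test was made, and a fixed fold of 1.5 stands for a call.

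The named regions are those of the cluster called in every list, with others by count and range. The members and lists were chosen with earlier results of these data known. U1 promoter sequences and an hg19 annotation were not used here, so the planned motif search and the comparison with other snRNA and U1 pathway genes were not made. The recovery and the ratios were checked on simulated peaks, made with the same formula and with independent Poisson counts. Such a check cannot show that the formula holds for these lists or that the intervals suit dependent reads. Python 3.11.15, NumPy 2.4.6, pandas 2.3.3, SciPy 1.17.1 and Matplotlib 3.10.9 were used.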

Additional observations from a re-analysis of the deposited data

How the results depend on the processing

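No paired analysis was possible because each fraction has 1 library. Summed reads of regions A to F moved beyond their counting interval when expected reads came from each list's genome background: to 0.649 in FT, 1.02 in G20 and 2.57 in G200. That scaling shifts every region by −0.49 in FT, 0.20 in G20 and 0.69 in G200 on the log2 scale. Taking off a shift common to all regions returns the earlier ratios by construction. It therefore does not show which scaling is the better one. In the local background window (added after the data were seen), the sum was 0.813 in FT, 0.981 in G20 and 1.51 in G200. At a fold of 2, 1 pair of a region and a library was above and 0 below, against 4 and 4 at 1.5-fold. Lists of equal length left 6 of the 16 FT peaks. For the sum, the other fixed alternatives (all shared regions, the median read share, summed pileups, merging at 100 bp, FT or G200 left out) stayed within the counting interval. Depth limits region B most, at 9 to 29 reads.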
